A study of Rattus norvegicus with 18 samples.

Results

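Enzymes of cholesterol synthesis were followed across 9 testis cell populations of rats aged 22 days. The genes were chosen by symbol, as Sqle, Cyp51, Sc5d, Msmo1, Nsdhl, Hmgcs1, Fdps and Idi1, and all probe sets annotated to 1 of them alone were taken. Of these 8 genes 7 had such probe sets, 12 in all, 10 on array type A and 2 on array type B, among 13810 genes named on the arrays. No probe set is named for Hmgcs1 in the annotation used here, so that gene was not analysed here.

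The study put RNA of each population on 2 types of 1-colour oligonucleotide array, 18 arrays in all, with 1 array per population and type and no replicates. Of the populations, 2 came from germ cells sorted by laminin, a protein of the basement membrane: cells that bound to it and cells that did not. Both are marked in the labels as cultured, with no day given. Another 5 came from germ cells kept on layers of mouse feeder cells: on STO, an embryonic fibroblast line, for 1, 5, 10 or 20 days, and on MSC1, a Sertoli cell line, for 20 days. The last 2 were somatic, the interstitial cells from between the tubules and the somatic cells of the tubules. No strain, genotype or number of animals is given, and the labels do not say whether feeder cells were removed before RNA was taken. Signals are on a linear scale with each array scaled to an average of 250. With bulk RNA, fewer cells of a type and less RNA per cell cannot be told apart.

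Cholesterol is built from acetyl-CoA by way of mevalonate. Hmgcs1 acts before mevalonate, Idi1 and Fdps turn the isoprene units made from it into farnesyl diphosphate, Sqle forms the epoxide of squalene that is then closed to lanosterol, and Cyp51, Msmo1, Nsdhl and Sc5d trim lanosterol toward cholesterol. Most of these genes are switched on by the transcription factor SREBP2 (Srebf2), which Scap carries to the Golgi when sterols are low and which the Insig proteins hold back in the endoplasmic reticulum when sterols are high. Oxysterols in turn activate the liver X receptors (Nr1h2 and Nr1h3), known for switching on cholesterol export genes such as Abca1, Abcg1 and Apoe and genes of fatty acid synthesis. In the testis, Leydig cells of the interstitium use cholesterol to make testosterone, and germ cells are known for making sterol intermediates by way of Cyp51.

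The promoters of the members are shown because SREBP proteins act there together with NF-Y, which binds the letters CCAAT. RefSeq windows on GRCr8, from 250 bases before to 50 after the gene's start, matched 7 of the 8 genes. These 7 are not the 7 genes read on the arrays, as they include Hmgcs1 and lack Sqle, for which no window was found. The window of Nsdhl lies at chrX:155817110-155817409 on the plus strand, that of Msmo1 at chr16:29746863-29747162 on the plus strand, that of Fdps at chr2:176804767-176805066 on the minus strand and that of Cyp51 at chr4:30991443-30991742 on the plus strand. Each is written from 5′ to 3′ along its gene, and capitals mark CCAAT on either strand.
Nsdhl: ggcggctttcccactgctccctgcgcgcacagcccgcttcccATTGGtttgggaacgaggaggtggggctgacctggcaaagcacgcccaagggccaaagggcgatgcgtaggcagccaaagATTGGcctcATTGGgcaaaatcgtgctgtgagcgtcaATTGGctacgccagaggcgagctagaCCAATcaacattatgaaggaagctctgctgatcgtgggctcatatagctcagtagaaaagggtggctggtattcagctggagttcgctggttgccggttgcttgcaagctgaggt
Msmo1: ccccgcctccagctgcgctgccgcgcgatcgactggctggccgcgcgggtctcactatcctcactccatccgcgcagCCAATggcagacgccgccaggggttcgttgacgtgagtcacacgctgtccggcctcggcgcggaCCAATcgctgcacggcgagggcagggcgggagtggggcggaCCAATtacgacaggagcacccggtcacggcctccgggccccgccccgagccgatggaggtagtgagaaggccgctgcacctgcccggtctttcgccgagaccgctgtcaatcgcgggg
Fdps: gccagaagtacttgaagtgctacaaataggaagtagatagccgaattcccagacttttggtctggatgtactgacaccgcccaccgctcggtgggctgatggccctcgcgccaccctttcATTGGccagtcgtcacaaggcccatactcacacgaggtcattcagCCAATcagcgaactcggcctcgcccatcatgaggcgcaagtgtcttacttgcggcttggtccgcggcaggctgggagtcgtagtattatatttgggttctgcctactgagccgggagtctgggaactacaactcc
Cyp51: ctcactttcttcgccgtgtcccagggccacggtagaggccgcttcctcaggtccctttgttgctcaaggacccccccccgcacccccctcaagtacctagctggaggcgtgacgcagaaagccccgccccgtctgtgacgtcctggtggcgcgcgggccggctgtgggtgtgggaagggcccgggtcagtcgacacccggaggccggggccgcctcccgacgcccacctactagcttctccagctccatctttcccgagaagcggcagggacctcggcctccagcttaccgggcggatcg

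The letters CCAAT occurred 5 times in the Nsdhl window, 3 times in that of Msmo1 and 2 times in that of Fdps, and 0 times in that of Cyp51. Of the 7 member windows 6 held CCAAT, against 37.5% of 33465 windows of the same length. GGGCGG, the Sp1 box, was in 5 of 7, against 33.1%, and the E-box CACGTG was in 1 of 7, that of Sc5d, against 6.42%. CACCCCAC is the core of the sterol regulatory element in the LDL receptor promoter. It and the looser TCACNCCAC were in 0 of 7, against 2.70% and 1.12%. Sterol regulatory elements spelled otherwise were not searched for. Both strands were searched, and a match to TCACNCCAC can contain one to CACCCCAC. The 4 windows printed were 55.7% to 71.0% G and C, against a median of 51.7% over all windows. A match describes the letters in the window only.

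Germ cell markers separated the germ cell libraries from the somatic ones. The 7 germ cell markers on the arrays summed to signals of 15253 to 33600 in the 7 germ cell libraries and to 893 and 927 in the somatic libraries. In both somatic libraries Mov10l1 was the 1 of these 7 under the floor of 50, the value to which lower signals were raised. Gapdh signal at the 3′ end over that at the 5′ end, a measure of how short the RNA or its copies were, was 14.7 to 29.7 on feeders and 5.63 to 11.2 in the 4 other libraries on type A. On type B these ranges overlapped, at 15.0 to 27.1 and 5.33 to 16.7, and so did those of actin, at 25.8 to 94.3 and 8.91 to 67.3 on type A. The part of these ratios in the results was not tested. The array error is that of 1 log2 fold between populations on 1 array type. It was taken from 100 probe sets present on both types, by how far their log2 folds differed between the types. Averaged over all pairs of populations its standard deviation was 0.25, so that 2 standard deviations correspond to 1.40-fold. This average was used for orders of populations and for STO day 10 to day 20, and the error of the pair itself for the named comparisons. It covers arrays, not animals, cultures or amplification.

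Sqle, squalene epoxidase and a rate-limiting step after squalene, varied most among the members (gene 29230, 1 probe set). Its signals were 409 in laminin-binding and 651 in non-binding cells, 249, 148, 345 and 443 on STO days 1, 5, 10 and 20, 48.1 on MSC1, 1074 in interstitial and 497 in tubular somatic cells. The interstitial signal was highest and the MSC1 signal, under the floor, was lowest, at least 21.5-fold apart. The steps from interstitial to non-binding cells, from STO day 1 to day 5 and from STO day 5 to MSC1 exceeded 2 standard deviations of the average array error, and the other neighbours in the order lay closer than that. One of these, STO day 10 over day 1 at 0.47 on the log2 scale, exceeded 2 standard deviations of the error of its own pair of libraries.

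Cyp51, the lanosterol demethylase (gene 25427), had 2 probe sets on type A. The brighter, whose name carries the _s mark of a set that can match more than 1 transcript, read 1066 in laminin-binding and 981 in non-binding cells. On STO it read 367, 409, 576 and 855 on days 1, 5, 10 and 20, and on MSC1 181. In the interstitial fraction it read 1598 and in the tubular fraction 1122. MSC1 was again the lowest of the 9, 8.82-fold under the interstitial fraction. The dim probe set lay between 44.7 and 161, highest in laminin-binding cells and lowest on STO day 1. Across the 9 populations the brighter set followed Sqle with a Pearson correlation of 0.95 on log2 signals, the highest among the 66 pairs of member probe sets. This describes 9 libraries that share their scaling.

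Msmo1, the sterol C4 methyl oxidase (gene 140910), read 352 in laminin-binding and 190.1 in non-binding cells. On STO it read 351, 360 and 477 on days 1, 5 and 10 and 189 on day 20. It read 238 on MSC1, 1323 in the interstitial and 438 in the tubular fraction. The interstitial library stood 1.47 above the next in log2 signal, the largest gap at the top of any member probe set.

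Nsdhl, which removes carbon from sterol C4 after Msmo1 (gene 309262), was read by a dim probe set on type A and a bright one on type B. The bright set read 1818 in laminin-binding cells, 529 in non-binding cells, 1540.3, 1476, 1492 and 828 on STO days 1, 5, 10 and 20, 907 on MSC1, 3324 in the interstitial and 1177 in the tubular fraction. Here the non-binding library was the lowest, and the interstitial library was the highest by 0.87 in log2 signal. The dim set lay between 24.5 and 107 and was under the floor in 3 of 9 libraries. The bright set followed Msmo1 with a correlation of 0.90, against 0.25 with Sqle.

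Sc5d, the sterol C5 desaturase (gene 114100), had 3 probe sets, and all 3 were highest in the interstitial fraction. The one used for counts read 188 in laminin-binding and 157 in non-binding cells, 106, 149, 148 and 141 on the 4 STO days, 92.6 on MSC1, 434 in interstitial and 116 in tubular cells. The set on type B read 154 in laminin-binding cells, its lowest value, and 328 in non-binding cells, with 363 to 691 on feeders, 934 in interstitial and 450.0 in tubular cells. The probe sets thus disagreed on the direction between the laminin sorts. The remaining set was under the floor in 5 of 9 libraries.

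The early enzymes were highest in laminin-binding cells by the sets used for counts. Fdps, farnesyl diphosphate synthase (gene 83791), read 2383 in laminin-binding and 1535 in non-binding cells, 1219, 1349, 1353 and 824 on the 4 STO days, 819 on MSC1, 1031 in the interstitial and 1876 in the tubular fraction. Laminin-binding cells were the highest, but no step between neighbours in this order exceeded 2 standard deviations of the array error. Idi1, isopentenyl diphosphate isomerase (gene 89784), read 379 in laminin-binding and 295 in non-binding cells by the set used for counts. It read 135, 248, 231 and 141 on the 4 STO days, 157 on MSC1, 360.0 in the interstitial and 229 in the tubular fraction. Laminin-binding cells led the interstitial fraction by 0.07 in log2 signal, within the array error. The other Idi1 set was highest in the interstitial fraction at 298 and read 119 in laminin-binding cells, against 202 in non-binding cells.

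**Figure D1:**
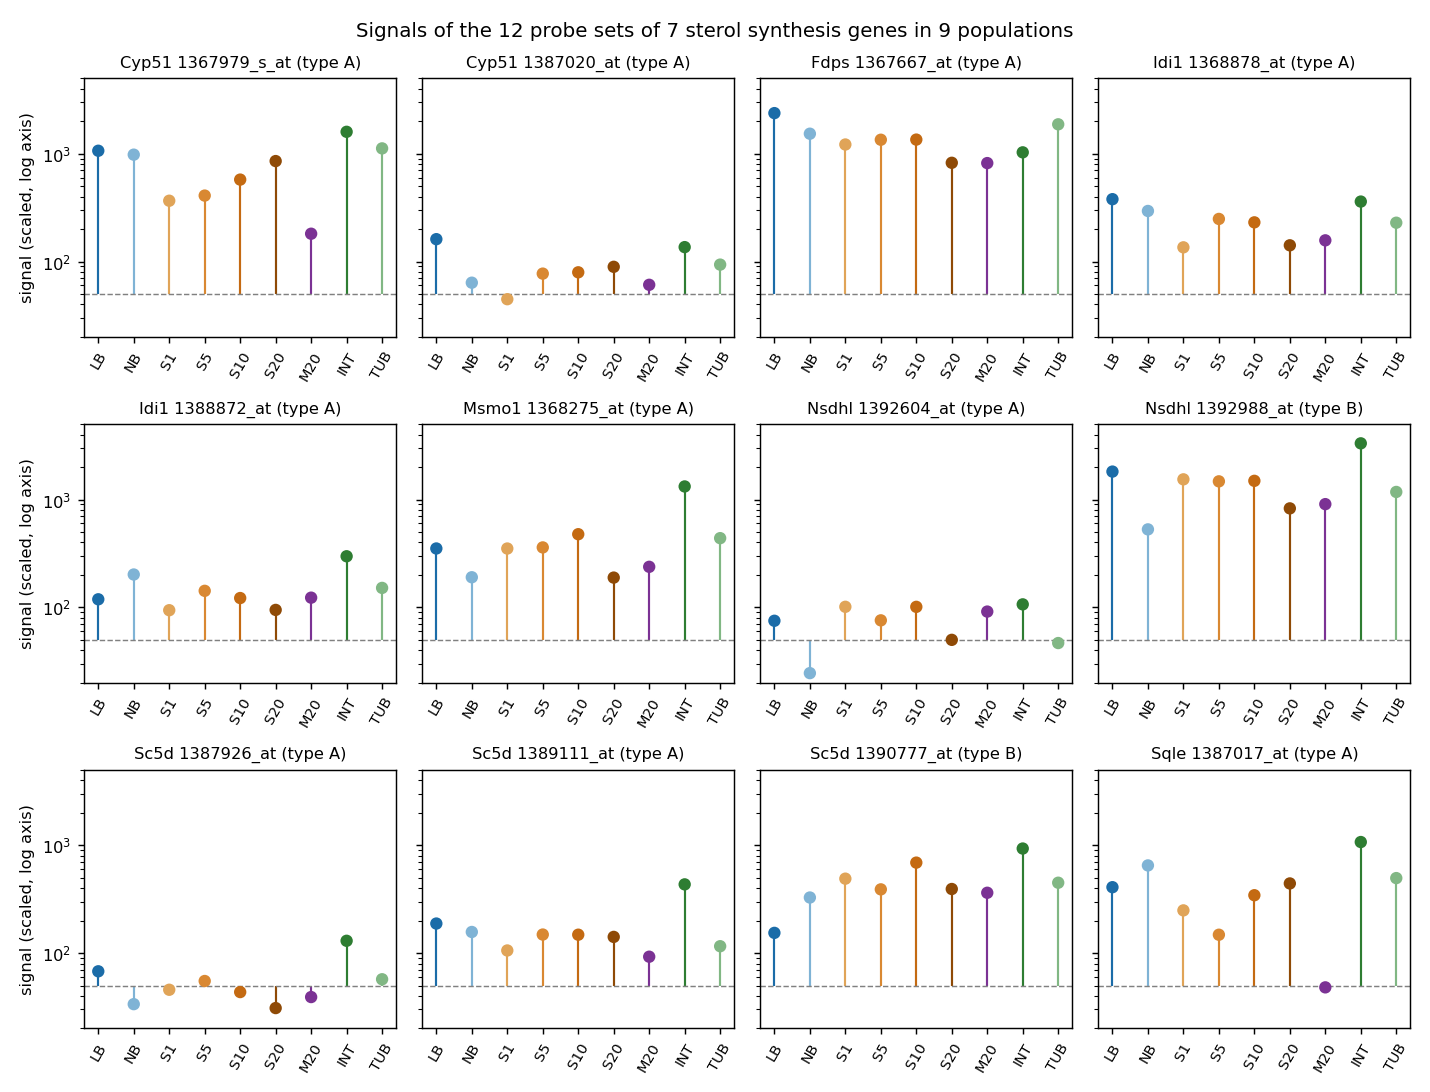
Signal (log axis) of each of the 12 member probe sets in laminin-binding (LB) and non-binding (NB) cells, on STO days 1, 5, 10 and 20 (S1 to S20), on MSC1 day 20 (M20) and in the interstitial (INT) and tubular somatic (TUB) fractions. Each point is 1 array, its stem runs to the dashed floor of 50, and 9 of the 12 probe sets are highest in the interstitial fraction.

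By the probe set used for counts, 5 of 7 member genes were highest in the interstitial fraction and 2 in laminin-binding cells. Among 8099 genes with a signal of at least 250 somewhere, 16.8% were highest in the interstitial fraction and 13.1% in laminin-binding cells. Of the 7 members 4 were lowest on MSC1, against 7.63% of those genes. Only for Sqle and Cyp51 did the step up to the next population exceed 2 standard deviations of the array error. Fdps read 819 on MSC1 and 824 on STO day 20, and Sc5d 92.6 on MSC1 and 106 on STO day 1. The Nsdhl set counted here read at most 107, under the 250 asked of the background genes. Members correlated unequally with each other, as the 21 pairs of genes had correlations from -0.36 to 0.95, with a median of 0.43. The 3 pairs below 0 all held Nsdhl, by its dim probe set.

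The interstitial and tubular fractions were compared first, since the former holds Leydig cells, which use cholesterol. Tubular cells were lower than interstitial cells for 6 of 7 member genes, with a median log2 fold of -1.09, against 0.0036 for all genes. Sc5d was 3.75-fold lower (116 against 434) and Msmo1 3.02-fold lower (438 against 1323), which passed the call of a 3-fold difference with the brighter side at 250 or more. That made 2 of 7 lower, where 3.82% of 13810 genes were called lower, and 0 of 7 higher, where 3.11% were. The Nsdhl set used for counts read at most 107, so Nsdhl could not be called in any comparison. The used Sc5d set reached 250 in interstitial cells alone, so it could not be called without them. The used Idi1 set stayed under 250 on all feeders and could not be called between them. Neither call held under every alternative. Msmo1 missed it with arrays scaled to a common 75th percentile or quantile normalized. Sc5d missed it with the mean over probe sets and under both rules that read type B, as its 2 other sets were 1.05 and 1.19 lower on the log2 scale. Fdps was the exception, 1.82-fold higher in tubular cells.

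The bright Nsdhl set was 2.83-fold lower in tubular cells, Sqle 2.16-fold and the used Idi1 set 1.57-fold. In all, 11 of the 12 probe sets were lower in tubular cells by more than 2 standard deviations of the array error, where 26.3% of all named probe sets above the floor were, and 1 was higher, where 27.2% were. None of the 12 changed direction under either other scaling. Of 12 other enzymes of sterol synthesis 2 were called lower: Acat2, which condenses acetyl-CoA, at 3.23-fold and Hsd17b7, a ketoreductase of the C4 demethylation, at 3.15-fold. The median of all 12 was -0.95. Pmvk, phosphomevalonate kinase, read 663 in tubular and 366 in interstitial cells. Fdft1, squalene synthase, read 118 and 172.

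Steroid hormone genes marked the interstitial library. Hsd3b1, a steroid dehydrogenase, was at least 48.0-fold lower in tubular cells, Cyp11a1, which cleaves the cholesterol side chain, at least 13.1-fold, and Star, which brings cholesterol into mitochondria, 3.12-fold. These were the 3 called of 10 such genes on the arrays. Insl3, Hsd17b3 and Nr5a1 were under the floor in the interstitial library by the sets used, and another Nr5a1 set on type B read 799 there and 646.5 in tubular cells. Fibroblast and matrix markers (18 genes) summed to 39170.0 in interstitial and 12906 in tubular cells, and macrophage markers (14 genes) to 7244 and 1426. Sertoli markers (15 genes) summed to 11406 and 18361, with Sox9 and Amh under the floor in both. The part of these cell types in the members' difference was not tested.

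No member gene was called between laminin-binding and non-binding cells. The median log2 fold of the 7 genes was 0.36, against 0.21 for all genes, so 0.16 above it, and 0 of 7 were called in either direction. Over all genes 4.53% were called higher and 5.17% lower. The median of all genes was 0.10 with 75th percentile scaling and 0.06 after quantile normalization. Read by its bright set on type B, which is not the set used for counts, Nsdhl was 3.44-fold higher in binding cells (1818 against 529), past the call. With 75th percentile scaling its log2 fold was 1.56, short of it. Msmo1 was 1.85-fold and Fdps 1.55-fold higher, and Sqle was 1.59-fold lower. The dim Cyp51 set was 2.53-fold higher, whereas the bright one gave 1.09-fold.

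Around the pathway, some lipid genes were called between the sorts. Stard3, which moves cholesterol between late endosomes and other membranes, was 3.03-fold higher, the 1 called of 8 uptake and trafficking genes. In fatty acid synthesis 3 of 13 genes were called higher, namely Fasn (fatty acid synthase) at 5.82-fold, the elongase gene Elovl5 at 3.75-fold and Acly, which makes cytosolic acetyl-CoA, at 3.43-fold, and 1, Acss2, which makes it from acetate, was called lower at 3.24-fold. Abcg1, the sterol exporter, was 4.63-fold higher. Of 10 SREBP control genes 2 were called lower, Insig2 at 3.77-fold and Ubxn8 at 3.53-fold. Insig2 was read on a type A set, with signals of 112 and 422. Srebf2 itself read 264 against 119 and Insig1, a known SREBP target, 992 against 736.

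Spermatocyte markers moved with this comparison. The 11 genes on the arrays summed to 1527 in binding and 21388 in non-binding cells, with Sycp1, Spo11, Crisp2, Hspa2, Adam2 and Crem under the floor in binding cells. Other markers differed too. Of 11 undifferentiated spermatogonia markers 5 were called higher in binding cells and 0 lower, with a median log2 fold of 1.23. Of 7 germ cell markers 3 were called lower and 0 higher, with a median of -1.44. The part of these markers in the members' values was not tested.

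When laminin-binding cells were set against both somatic fractions, 0 of 7 members were called in either direction. In the background, 4.62% of genes were called higher and 3.38% lower than in each fraction. The median log2 fold of the members, set against the mean of both fractions, was -0.25, against 0.10 for all genes. The median had opposite signs by fraction, as it was -0.58 against the interstitial and 0.35 against the tubular fraction alone. Msmo1 was called lower against the interstitial fraction alone. Outside the members, binding cells were lower than both fractions for Soat1, which esterifies cholesterol, at 4.66-fold, and Cyp27a1, which makes oxysterols, at 4.35-fold, the 2 called of 9 efflux and storage genes. Star was 6.36-fold lower and Lipa, the lysosomal lipase, 3.19-fold. Faxdc2, a hydroxylase of the sterol desaturase family, was at least 9.44-fold lower.

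**Figure D2:**
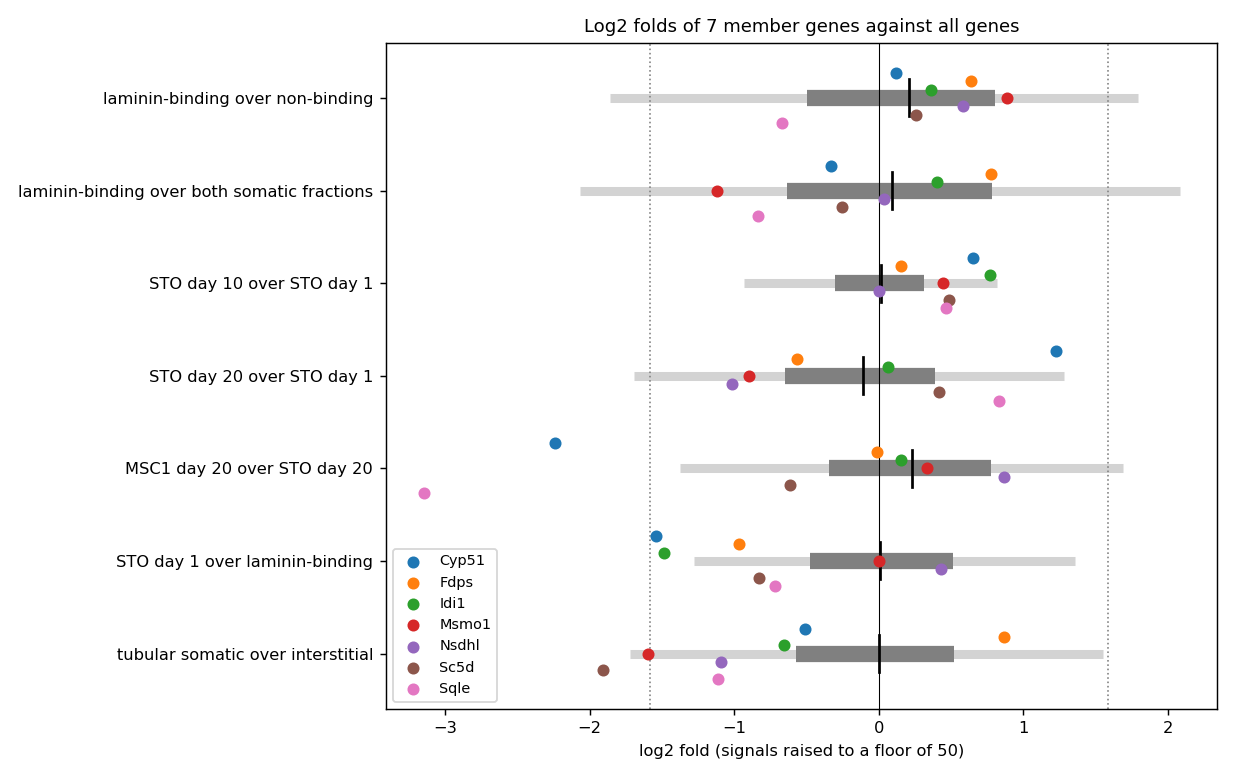
Log2 fold of each of the 7 member genes (points) in 7 comparisons, with the 5th to 95th percentile (light bar), the middle 50% (dark bar) and the median (black line) of all genes with a signal above the floor, and dotted lines at 3-fold. Sqle at -3.15 and Cyp51 at -2.24 on MSC1 over STO day 20 lie below the light bar. So do Cyp51 at -1.54 and Idi1 at -1.48 on STO day 1 over laminin-binding, and Sc5d at -1.91 in tubular over interstitial cells.

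Germ cells on day 1 on STO had lower signals than laminin-binding cells for 6 of 7 members, none of them called. Of these 6, Msmo1 was level, at 351.2 on STO and 351.5 in binding cells. The median log2 fold was -0.83, against 0.01 for all genes, and 0 of 7 passed the call, where 1.72% of genes were called higher and 1.57% lower. Cyp51 was 2.91-fold lower and Idi1 2.80-fold lower, just short of the threshold, and both were called under either other scaling. The other Idi1 set was 1.26-fold lower, within the array error, and with the mean over probe sets Cyp51 alone was called. Fdps was 1.96-fold lower. Sc5d pointed both ways, as its set on type B was 3.18-fold higher on STO (491 against 154) and the set used was 1.78-fold lower. The labels do not say whether the cells placed on feeders were those that bound laminin. Fibroblast and matrix markers summed to 5860.0 on STO day 1 and 1855 in binding cells, with 4 of 18 called higher and Lum, Serpinh1, Thy1 and Pdgfrb under the floor in both. The Gapdh ratio on type A was 20.7 and 7.07. Their part in the members' values was not tested.

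During culture on STO the members divided. From day 1 to day 10 their median log2 fold was 0.47, against 0.02 for all genes, and 8 of the 11 probe sets above the floor were higher by more than 2 standard deviations of the array error, where 21.9% of all named probe sets were, and 0 were lower, where 21.6% were. None of the 7 genes passed the call, where 0.138% of all genes were called higher and 0.536% lower. From day 10 to day 20, 6 of 11 probe sets were lower by more than 2 standard deviations of the array error, where 27.9% of all named probe sets were. They were those of Fdps, Msmo1 and Nsdhl (both), the used set of Idi1 and the type B set of Sc5d. The bright Cyp51 set was the 1 of 11 higher by that margin, where 18.6% were.

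On day 20 against day 1 the members pointed both ways. The median log2 fold of the members was 0.06, against -0.11 for all genes, and 0 of 7 were called, where 2.02% of genes were called higher and 3.54% lower. Cyp51 was 2.33-fold higher (855 against 367), with a higher signal on each later day, and Sqle 1.78-fold higher. Msmo1 was 1.86-fold lower, the bright Nsdhl set also 1.86-fold lower and Fdps 1.48-fold lower. In limma's linear model on log2 culture day over 4 arrays per type, with 2 residual degrees of freedom, 0 of 9 member probe sets bright enough to test passed an adjusted p of 0.05. Over the arrays 0% of 16066 probe sets passed, and 1500 had an unadjusted p under 0.05. The slope of Cyp51 was 0.27 ± 0.12 (SE) per doubling of culture time, with an adjusted p of 0.53 by limma. The spread in this fit is the departure from a straight line, not that of repeated cultures.

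Sterol genes outside the members had few calls on day 20. None of 12 other synthesis genes was called, with a median of -0.56 over the 11 that were above the floor. Pmvk read 170, 152, 81.9 and 42.4 on the 4 days, and Acat2 373, 468, 626 and 769. Stard4, a sterol carrier, was 3.09-fold lower on day 20 (385 against 1190), the 1 called of 8 uptake and trafficking genes. The tested Stard4 sets on type B differed, with limma slopes of 0.05 ± 0.14, -0.12 ± 0.13 and -0.31 ± 0.14 (SE) per doubling of culture time. Of efflux and storage genes 2 of 9 were called lower, and of fatty acid synthesis genes 3 of 13. Abca1 read 3418, 1201, 603 and 318 on the 4 days, 10.7-fold lower on day 20, and Abcg1 was 3.16-fold lower. Elovl6, a fatty acid elongase, was at least 15.1-fold lower, Fasn 4.12-fold and Scd2, a desaturase, 3.41-fold by its set on type A. A Scd2 set on type B was also lower on day 20, by less than 3-fold.

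Markers moved with day 20 as well. Spermatocyte markers summed to 3392, 2686, 3088 and 14521 on days 1, 5, 10 and 20. They did not move together from day 1 to day 20. Of 11 markers 5 were called higher on day 20, while Ldhc, Ccna1 and Adam2 fell under the floor. Crisp2, Hspa2 and Crem were under it on both days. Fibroblast and matrix markers summed to 5860.0, 3046, 4147 and 8115. Undifferentiated spermatogonia markers summed to 5197 on day 1 and 2898.5 on day 20, with 5 of 11 called lower, a median log2 fold of -1.63, and Ret, Nanos3 and Lin28a among those under the floor on day 20. Macrophage markers summed to 1170.0 and 2081, with 3 of 14 called higher, and Ptprc and Csf1r under the floor on both days. Star was 6.47-fold higher on day 20 than on day 1. The part of these in the members' values was not tested.

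The 2 feeders were compared on day 20. On MSC1, Sqle was at least 8.86-fold lower than on STO day 20 (48.1 against 443) and Cyp51 4.72-fold lower (181 against 855). These were 2 of 7 members called lower, where 2.58% of genes were, and 0 of 7 were called higher, where 3.37% were. Against STO day 5, its lowest STO day, Sqle was at least 2.96-fold lower on MSC1, and against STO day 1 Cyp51 was 2.02-fold lower. Both calls held under either other scaling. By the mean over its probe sets Cyp51 was not called, as the dim set gave a log2 fold of -0.55.

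The other 5 members were not called. Fdps read 819 on MSC1 and 824 on STO, the used Idi1 set 157 and 141, Msmo1 238 and 189 and the bright Nsdhl set 907 and 828. Sc5d read 92.6 and 141. The directions of Fdps and of both Idi1 sets turned after quantile normalization, and that of the bright Nsdhl set with 75th percentile scaling. The median log2 fold of all 7 was -0.01, against 0.23 for all genes, so 0.24 below it, and the latter was 0.10 and 0.04 under the other scalings. With 75th percentile scaling the share of called genes that were higher on MSC1 was 43.2%, against 56.6%.

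Some genes of sterol export and fatty acid synthesis were called higher on MSC1. Apoe was 11.6-fold higher on MSC1 (592 against 51.1), Lcat, which esterifies cholesterol on lipoproteins, 5.13-fold, Abca1 4.85-fold and Abcg1 4.72-fold. They are the 4 called of 9 efflux and storage genes on the arrays, with a median of 1.48 over the 8 above the floor. Elovl6 was at least 18.6-fold higher, Scd2 4.53-fold by its set on type A and Fasn 3.33-fold, the 3 called of 13 fatty acid synthesis genes. A Scd2 set on type B was not higher on MSC1 than on STO day 20. Lrp8, a lipoprotein receptor that binds Apoe, was 3.43-fold higher, the 1 called of 8 uptake and trafficking genes. None of 12 other sterol synthesis genes and none of 10 SREBP control genes was called. Lss, lanosterol synthase, read 296 and 355 and Insig1 438 and 586.

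MSC1 and STO libraries differed in other ways. Apoe is also known from Leydig cells and macrophages, whose marker list summed to 3078.5 on MSC1 and 2081 on STO day 20, with Ptprc and Fcgr2b under the floor on both. Smooth muscle markers (10 genes) summed to 2640 and 1085 and Sertoli markers to 3257 and 2438, with Sox9 and Amh under the floor on both. Cldn11, a Sertoli junction gene, was 11.1-fold higher on MSC1 (615.5 against 55.6). Spermatocyte markers summed to 3735 and 14521, with 3 of 11 called lower on MSC1. Of these 11 genes 7 were at or above the floor on MSC1 and 5 on STO. Undifferentiated spermatogonia markers (11 genes) summed to 5263 and 2899, with 5 of 11 called higher on MSC1 and 1 lower. Their median log2 fold was 1.32, against 0.23 for all genes. The Gapdh 3′ to 5′ ratio on type A was 27.4 on MSC1 and 14.7 on STO day 20, while that of actin was 25.8 and 37.0. The part of cell makeup and of RNA from mouse feeders in these differences was not tested.

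**Figure D3:**
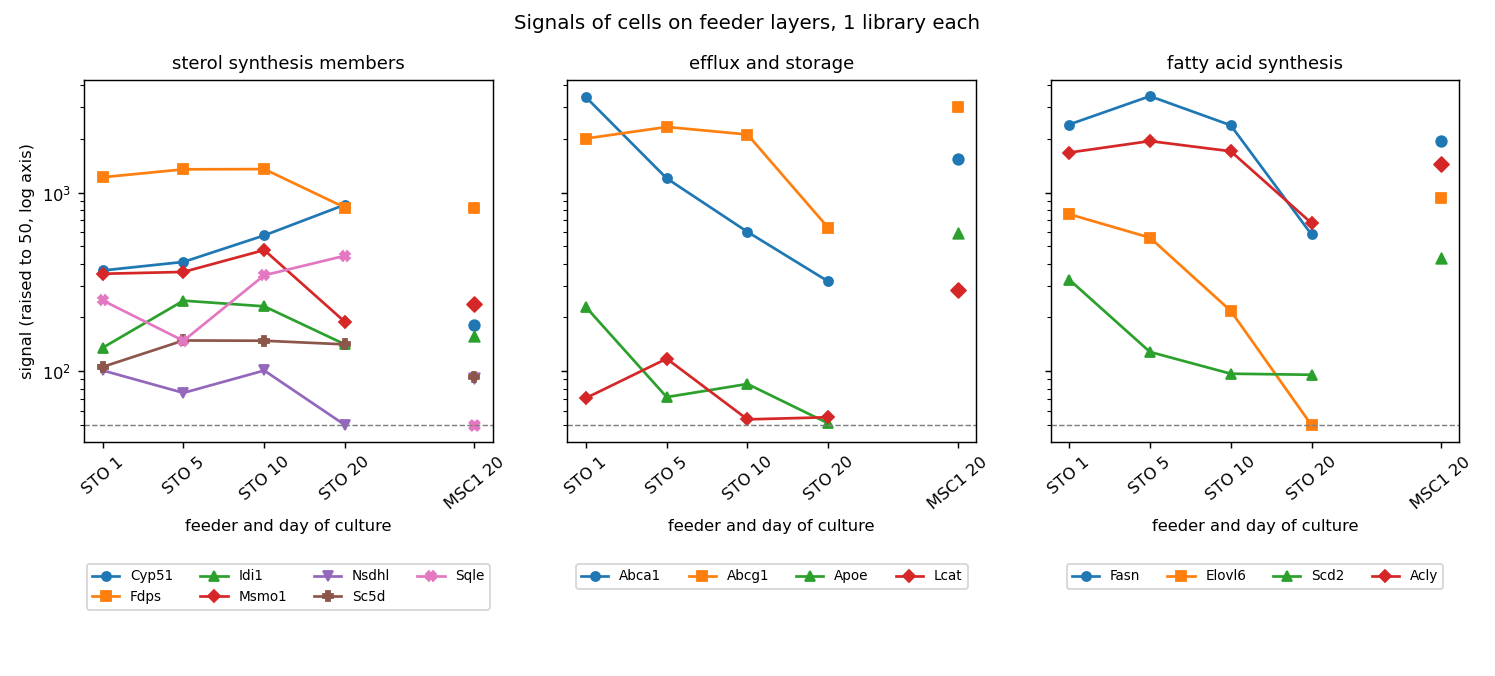
Signal (log axis, raised to a floor of 50) in the 5 libraries of cells on feeders, for the 7 members and for named genes of efflux and fatty acid synthesis, with lines joining the STO days and separate points for MSC1. Sqle lies at the floor on MSC1, whereas Elovl6 lies at the floor on STO day 20 and at 931 on MSC1.

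Sterol synthesis genes outside the members had their own orders. Mvd, mevalonate diphosphate decarboxylase, read 209 in laminin-binding and 92.1 in non-binding cells and at most 61.4 elsewhere. Fdft1 was highest on STO day 10 at 592 and lowest in tubular cells at 118. Dhcr7, which makes cholesterol in the last step of one branch, ranged from 243 on STO day 20 to 710.2 on STO day 10. Tm7sf2, a sterol reductase, read 211 in interstitial and 20.8 in tubular cells. Ebp, a sterol isomerase, exceeded 100 in no library but the interstitial one, at 164. The used set of Hsd17b7 read 139.6 to 440.4 and that of Mvk, mevalonate kinase, 53.2 to 175. Lbr read 23.3 in laminin-binding cells and 62.3 to 128 in the other libraries.

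**Figure D4:**
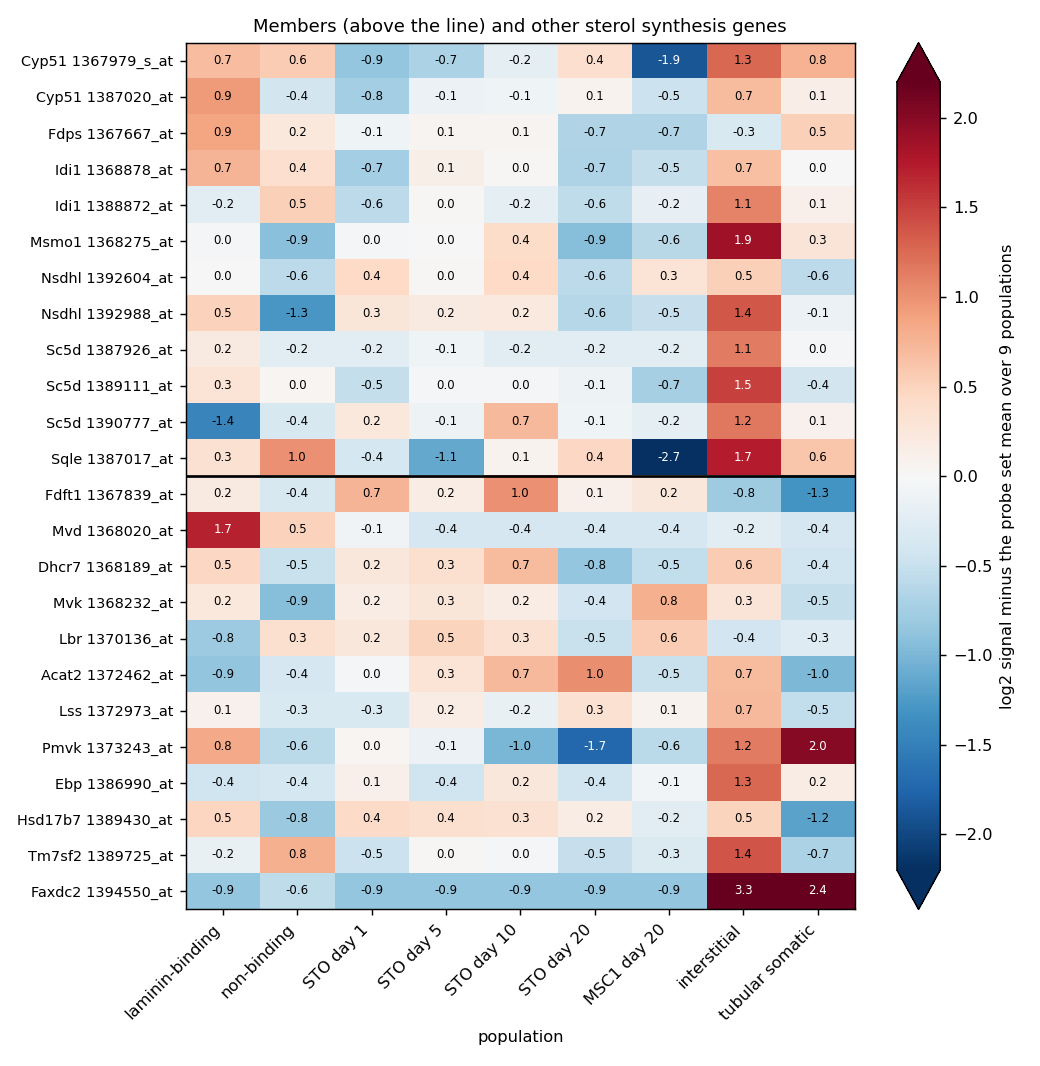
Log2 signal of the 12 member probe sets (above the line) and of 12 other sterol synthesis genes (below it) in 9 populations, each minus its own mean over them and raised to a floor of 50 first. Red is above and blue below that mean, and in the members the interstitial column is red in 11 of 12 and Sqle on MSC1 is the lowest cell at -2.7.

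The genes whose pattern was most like the mean pattern of the 7 members were sought among 7751 genes with a signal of at least 250 somewhere and a log2 range of at least 1. Pank3, a pantothenate kinase of coenzyme A synthesis, had the highest Pearson correlation over the 9 populations, at 0.93. Next were Vav3, Dact1 and Mfsd14b at 0.92, Smim14 at 0.91, Rraga at 0.90 and Glud1, Tmem14c, Oxsm and Amd1 at 0.89. Pank3 read 1998 in interstitial cells and 406 on MSC1, its lowest. Of the sterol lists, Fdx1, the ferredoxin that serves mitochondrial cytochromes P450, had 0.76 (rank 119), Insig1 0.63 (rank 603) and Dhcr7 0.52, while Fdft1 had -0.44. These correlations describe 9 libraries that share their scaling.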

How the data were processed

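Each library was made from 50 ng of total RNA in 2 amplification rounds, per the labels. The authors deposited 1 linear intensity per probe set and array, scaled to average 250 (per the labels). Type A arrays were multiplied by 0.391 to 1.51, type B arrays by 1.05 to 4.01. Detection calls (Tau 0.015) were not used here. No source used here names the software or background treatment. Genes were named from probe sets with 1 gene (12789 on type A, 7570 on type B). Control probe sets were left out.

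Signals were raised to a floor of 50 and taken to log2. The probe set with the highest mean log2 signal stood for a gene, on type A where possible, and a gene was called at 3-fold with the brighter side at 250 or more. Folds with 1 side under the floor are lower bounds. No test between single libraries is possible, and the number of arrays limits precision. The culture trend used limma 3.58.1 in R 4.3.3 with Benjamini-Hochberg adjustment. The adjustment ran across probe sets averaging 100 or more on the STO arrays, also those without a named gene. The fit was also run on simulated data with independent noise. Alternatives were other floors, scalings, thresholds and probe set rules. Named genes are the members, other sterol synthesis enzymes, called list genes and the 10 genes most alike. A few list genes are named for their values without a call. The members and lists were chosen with earlier results of these data known.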

Additional observations from a re-analysis of the deposited data

How the results depend on the processing

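No paired analysis was possible because each population has 1 library per array type. The median log2 fold of the members moved by more than 1 standard deviation of the array error of its comparison in these cases. For laminin-binding over non-binding cells it was 0.58 with the mean over probe sets. Against the somatic fractions it was -0.58 with the interstitial and 0.35, of opposite sign, with the tubular fraction alone. For STO day 20 over day 1 it was -0.32 with type B first or with the brightest probe set on either type, the latter chosen after the data were seen. For tubular over interstitial cells it was -0.65 with a floor of 100. Counts of called members moved as follows. For laminin-binding over non-binding cells the count was 1, Nsdhl, under both rules that read type B. Against the interstitial fraction alone it was 1. For STO day 20 over day 1 it was 1 at 2-fold. For MSC1 over STO it was 1 with the mean over probe sets. For STO day 1 over laminin-binding cells it was 2 under each other scaling and at 2-fold, and 1 with the mean over probe sets, Cyp51 lower, but 1 in the other direction, Sc5d higher, under both rules that read type B. For tubular over interstitial cells it was 1 under each other scaling, Sc5d, and 1 with the mean over probe sets and under both rules that read type B, Msmo1. The other 104 of 126 values compared stayed within that standard deviation or 1.5 times the count. In the limma trend 0 members passed under every alternative, while the count over all probe sets was 0 as fitted, 1425 with a linear day, 1733 without STO day 1, 18 without day 10 and 28 without day 20. Signals near the floor limit what can be said of Nsdhl and Sc5d on type A.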

Other observations

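Farnesyl diphosphate, the product of Fdps, also feeds the prenylation of proteins, and some enzymes of that branch differed between germ cell libraries. Icmt, which methylates prenylated proteins, read 289.7 in laminin-binding and 73.7 in non-binding cells, a 3.93-fold difference. It was 3.87-fold higher in binding cells than in the nearer somatic fraction. Fntb, a subunit of protein farnesyltransferase, was 4.16-fold higher in binding than in non-binding cells. These were the 2 called higher in that comparison of 11 genes of the branch on the arrays. Zmpste24, the protease of prelamin A, was 3.18-fold higher on STO day 10 and 5.21-fold higher on STO day 20 than on day 1, with signals of 118, 309, 375 and 613 on the 4 days, and 1502 in the interstitial fraction.

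A probe set of Scd2 on type B read 5.10 in laminin-binding and 13.0 in non-binding cells, 1768, 822, 1726 and 995 on STO days 1, 5, 10 and 20, and 886 on MSC1. It read 205 in interstitial and 53.7 in tubular cells. The set used for Scd2, on type A, read 98.8, 47.9, 326, 128, 96.9, 95.6, 433, 2452 and 756 in the same order. The 2 sets thus disagree on where the gene is highest and on whether it was higher on MSC1 than on STO day 20. The set on type B was chosen for mention after its values were seen.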
